A study of Mus musculus with 8 samples.

Results

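This account follows 36 mouse genes of the germline and of meiosis, taken from a fixed list of names out of 21896 protein-coding genes, and the 5-hydroxymethylcytosine (5hmC) that appeared on them when a TET enzyme was switched on. A call belonged to a gene if it lay within the GRCm38 span of the gene or up to 1 kb outside it. Positions within 1 kb of either end of the span were the gene's ends, and the rest was its body. All cells came from 1 embryonic stem cell line in which TET1, TET2 and TET3 are inactivated and which carries a PiggyBAC transposon with the catalytic domain of mouse TET3, induced by doxycycline and linked to mCherry. The line was plated at low density in medium with 50 µg/ml ascorbate. It was left without doxycycline (0 h, libraries A, B and C) or given 1 µM doxycycline for 6 h (A and B) or 12 h (A, B and C). The untreated cells carry the same inactivated TET genes and the same transposon. The labels do not say that libraries of a time came from separate cultures, so the spread between them may be technical. The isolated catalytic domain stood in for the full enzyme.

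TET enzymes oxidise 5-methylcytosine to 5hmC, so 5hmC can arise only where a CpG was methylated. Most CpG-rich promoters are free of methylation. A set of germline genes is known for CpG-rich promoters that are methylated and silent outside the germline, and that are repressed in embryonic stem cells by a Polycomb complex containing E2F6 and the MGA and MAX pair. The comparison asks whether the CpG-rich ends of these genes gained 5hmC, unlike gene ends in general. Methylation itself was not measured, so the methylated state of these promoters could not be checked here.

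In APOBEC-coupled epigenetic sequencing, 5hmC is protected by glucosylation while cytosine and 5-methylcytosine are deaminated. An undeaminated CpG call was therefore taken as 5hmC, with the assay's background on top. The 8 libraries held 75023 to 485941 CpG calls, and 0.899 to 1.26% of calls were undeaminated at 0 h, 6.27 to 6.57% at 6 h and 22.3 to 26.8% at 12 h. The depth on the germline genes was low, with 338 calls at their ends and 1315 in their bodies over all libraries. Intervals given here are 95% Wilson intervals, which cover counting error only, and calls on 1 read are not independent of each other. In these bulk libraries, more cells with 5hmC and more 5hmC per cell cannot be told apart.

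The 4 promoters below show CpG-rich germline gene starts where a single read gave several calls, from all calls undeaminated to none. They run from 250 bases before the RefSeq start site to 30 bases after it, written 5′ to 3′ on the gene's strand from the RefSeq table of GRCm38.p6. Capitals mark the CpGs that were called. Mov10l1 lies at chr15:88982744-88983023 on the plus strand, and its 6 marked CpGs were all deaminated on a read of 0 h library C and all undeaminated on a read of 12 h library C. Syce1 lies at chr7:140787825-140788104 on the minus strand, and 3 of its 10 marked CpGs were undeaminated on a read of 6 h library B. Sycp3 lies at chr10:88459337-88459616 on the plus strand, and 0 of its 7 marked CpGs were undeaminated on a read of 12 h library A. Slc25a31 lies at chr3:40708621-40708900 on the plus strand, and 0 of its 3 marked CpGs were undeaminated on a read of 12 h library A.
Mov10l1: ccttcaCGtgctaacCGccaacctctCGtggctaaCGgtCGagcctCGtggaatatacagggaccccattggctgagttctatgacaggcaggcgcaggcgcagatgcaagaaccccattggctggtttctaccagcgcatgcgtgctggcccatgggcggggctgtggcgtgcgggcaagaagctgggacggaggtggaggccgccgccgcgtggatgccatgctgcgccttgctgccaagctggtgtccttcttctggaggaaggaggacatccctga
Syce1: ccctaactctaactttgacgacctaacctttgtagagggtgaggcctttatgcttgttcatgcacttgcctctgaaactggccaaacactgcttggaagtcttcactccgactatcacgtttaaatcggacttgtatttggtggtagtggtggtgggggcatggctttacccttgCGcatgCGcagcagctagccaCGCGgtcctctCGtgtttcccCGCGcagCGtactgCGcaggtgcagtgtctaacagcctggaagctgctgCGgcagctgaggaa
Sycp3: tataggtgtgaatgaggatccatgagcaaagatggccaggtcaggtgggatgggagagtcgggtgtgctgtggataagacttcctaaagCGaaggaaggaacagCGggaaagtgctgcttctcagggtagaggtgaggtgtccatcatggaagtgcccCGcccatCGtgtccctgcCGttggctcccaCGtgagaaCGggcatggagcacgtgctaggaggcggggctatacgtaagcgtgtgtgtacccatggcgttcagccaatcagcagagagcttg
Slc25a31: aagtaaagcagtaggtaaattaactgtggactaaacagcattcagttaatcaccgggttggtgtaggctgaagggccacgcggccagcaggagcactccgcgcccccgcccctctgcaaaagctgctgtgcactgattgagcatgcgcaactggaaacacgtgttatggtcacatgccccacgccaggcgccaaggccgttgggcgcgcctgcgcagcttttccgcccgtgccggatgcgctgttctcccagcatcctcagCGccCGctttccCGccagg

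Reads with at least 6 CpG calls are called CpG-rich here. On CpG-rich reads at the ends of the germline genes, 1 of 62 calls was undeaminated at 0 h (1.61%, interval 0.285 to 8.59%), then 3 of 41 at 6 h (7.32%, 2.52 to 19.4%), then 22 of 82 at 12 h (26.8%, 18.4 to 37.3%). At the CpG-rich ends of all other protein-coding genes the level went from 1.09% at 0 h to 2.08% at 6 h and 5.46% at 12 h (4256 of 77953 calls, 5.30 to 5.62%). The level of the germline gene ends was thus 25.2 percentage points higher at 12 h than at 0 h, and it stood 21.4 points above other gene ends at 12 h. These 82 calls came from 10 reads on 8 genes, and the 77953 calls at other gene ends from 7109 reads. The 21.4 points were not adjusted for the number of CpGs within CpG-rich reads. Other gene ends had lower levels on reads with more CpGs, as given by class below.

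Each 12 h library lay above the other gene ends, with a wide spread. Library A had 4 of 31 undeaminated calls (12.9%) against 4.77% at other gene ends, library B 9 of 36 (25%) against 5.43%, and library C 9 of 15 (60%) against 7.18%. These calls came from 4 reads in A, 4 in B and 2 in C. A single read held 3 of the 4 undeaminated calls in A (Mei1), 6 of the 9 in B (Tuba3a) and 8 of the 9 in C (Mov10l1). At 0 h, library A had 0 of 31, library B 1 of 22 (4.55%) and library C 0 of 9, and at 6 h library A had 0 of 13 and library B 3 of 28 (10.7%). Libraries of 12 h and 0 h did not overlap. The mean of the 12 h libraries was 32.6% ± 24.5 (SD, n = 3), so the distance to other gene ends was about as large as the spread between libraries. The genes were chosen with results of these data known, and no test was made over the list.

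**Figure D1:**
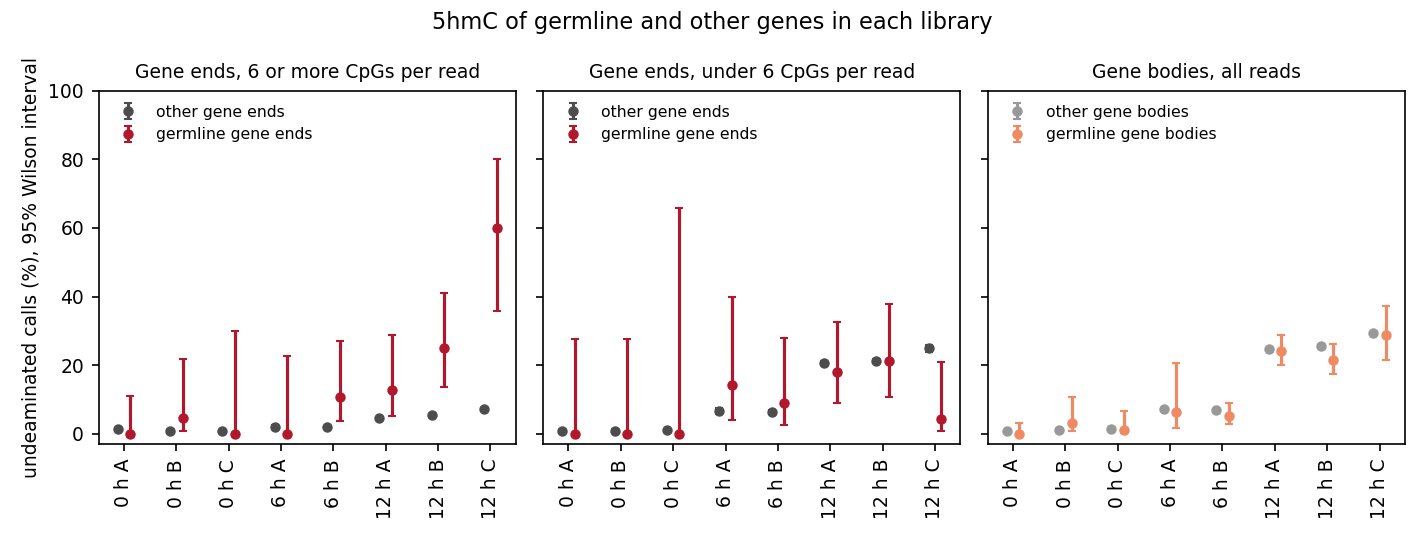
Undeaminated calls in percent in each library (points, with 95% Wilson intervals) at gene ends on reads with at least 6 CpGs (left), at gene ends on reads with fewer (middle) and in gene bodies (right), for the germline genes and for all other protein-coding genes. At CpG-rich ends the 3 germline values at 12 h are 12.9, 25 and 60%, from 4, 4 and 2 reads. Each lies above the other genes, while in bodies the sets lie close together.

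The distance from other gene ends differed with the number of CpGs on a read. At other gene ends the 12 h level was lower on reads with more CpGs: 25.1% with 1 CpG, 24.0% with 2, 22.1% with 3, 18.1% with 4-5, 11.9% with 6-7, 6.30% with 8-10 and 3.55% with 11 or more. The germline gene ends had 0 of 13 calls with 1 CpG, 5 of 18 (27.8%) with 2, 2 of 7 (28.6%) with 3 and 8 of 57 (14%, 7.29 to 25.3%) with 4-5. They had 6 of 27 (22.2%) with 6-7 CpGs, 10 of 43 (23.3%) with 8-10 and 6 of 12 (50.0%) with 11 or more. The last came from 1 read of Tuba3a, and 8 of the 10 undeaminated calls in the class of 8-10 came from 1 read of Mov10l1 in library C. Without Mov10l1, or without library C, that class held 2 of 35 (5.71%), beside the 6.30% of other ends. With fewer than 6 CpGs the germline ends had 15 of 95 (15.8%, 9.81 to 24.4%) against 21.6%, and library C had 1 of 23 there.

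**Figure D2:**
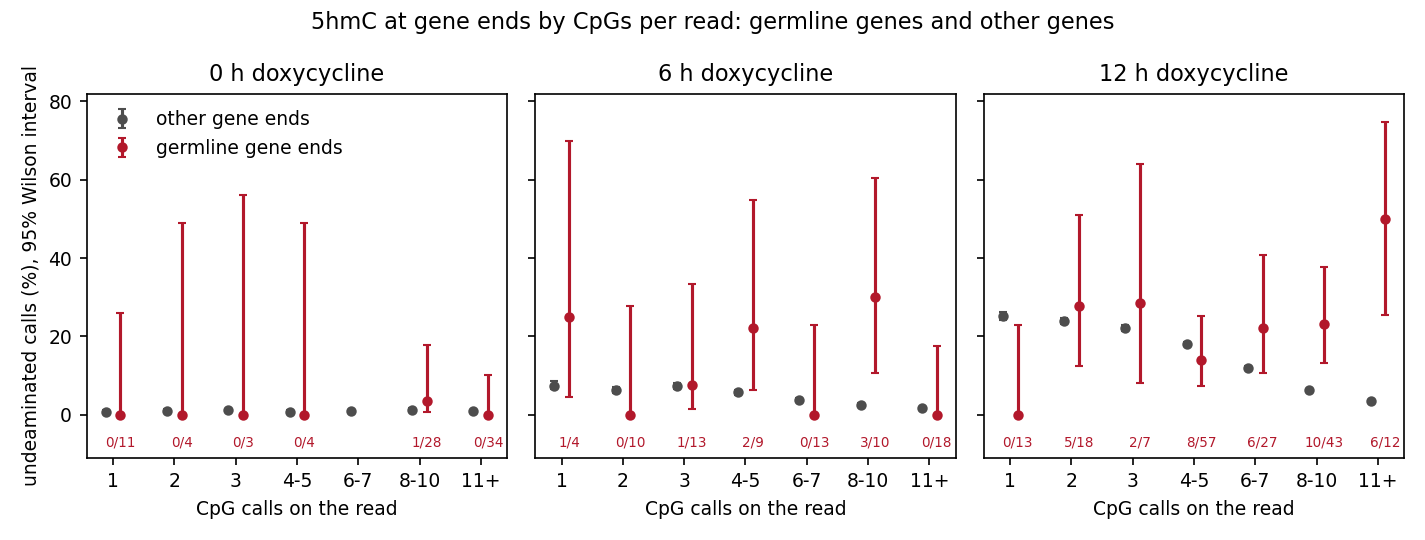
Undeaminated calls in percent (points, with 95% Wilson intervals) at gene ends at 0, 6 and 12 h, by the number of CpG calls on the read. Counts of the germline genes are printed under the points, and at 12 h their intervals leave out the level of other genes in the classes of 1, 8-10 and 11 or more CpGs, below it in the first and above it in the others. The class of 8-10 holds 2 of 35 calls (5.71%) without the 1 read of Mov10l1, and the class of 11 or more is 1 read.

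Over reads of all classes, 1 of 84 calls at germline gene ends was undeaminated at 0 h (1.19%), then 7 of 77 at 6 h (9.09%), then 37 of 177 at 12 h (20.9%, 15.6 to 27.5%), against 1.02, 3.61 and 11.6% at other gene ends. At 12 h the libraries held 11 of 70 (15.7%), 16 of 69 (23.2%) and 10 of 38 (26.3%). The reads differed too, since 46.3% of the calls at germline gene ends were on CpG-rich reads, against 61.7% at other gene ends. Other gene ends of the same library and the same class of CpGs gave an expected 14.7%, and the germline ends stood 6.22 points above it, by 1.02, 10.6 and 7.88 points in libraries A, B and C. That distance was 3.43 points without 12 h library B and 9.62 points without 12 h library A, and it turned to -6.61 points when only the first call of each read was counted.

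The reads themselves show where the calls fell. Of the 10 CpG-rich reads at germline gene ends at 12 h, 7 had at least 1 undeaminated call (70.0%, 39.7 to 89.2%), against 26.0% of 7109 such reads at other gene ends. At 0 h it was 1 of 5 reads and at 6 h 1 of 5. These shares were not adjusted for the number of CpGs on a read. Mov10l1, an RNA helicase that acts in piRNA production, gave the extreme read: all 8 CpGs were undeaminated in 12 h library C, at -189 to -100 bp from the start of the gene span. A read of 0 h library C over the same promoter, at -213 to -100 bp, had 0 of 9. At other gene ends 0.324% of CpG-rich reads at 12 h were undeaminated at every CpG that lay within the end. Over all CpG-rich reads of the libraries, counted over the whole read, 7 of 7427 (0.0943%) were fully undeaminated at 0 h. At 12 h it was 168 of 23493 (0.715%).

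Tuba3a, an alpha-tubulin of the testis, gave a mixed read in 12 h library B, with 6 of 12 CpGs undeaminated between 17 and 126 bp inside the gene, and another in library C with 1 of 7 between 386 and 449 bp. Its near-identical relative Tuba3b makes the assignment of these reads uncertain, since the handling of reads that fit several places is not given in the sources used here. Mei1, needed for the DNA breaks that start meiotic recombination, had 3 of 7 at the 5′ end of its span (348 to 443 bp, library A). It had 1 of 8 beyond its 3′ end (526 to 656 bp, library A). The only RefSeq start listed for Mei1 lies inside the gene, more than 1 kb from both reads. Tex101, a surface protein of germ cells, had 2 of 6 (150 to 229 bp, library B), and Syce1, of the central element of the synaptonemal complex, had 1 of 8 (200 to 334 bp, library B).

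The remaining 3 reads at 12 h were deaminated throughout. They lay on Dmc1, the meiotic strand exchange recombinase, with 0 of 10 calls (441 to 537 bp, library B), on Slc25a31, a mitochondrial ADP/ATP carrier of the testis, with 0 of 9 (11 to 129 bp, library A), and on Sycp3, of the axial element of meiotic chromosomes, with 0 of 7 (-161 to -54 bp, library A). A count of 0 of 10 allows a share of up to 30%, so such reads cannot tell absence of 5hmC from the level of other gene ends. A fully undeaminated read and fully deaminated reads thus stood side by side among CpG-rich germline gene ends at 12 h.

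**Figure D3:**
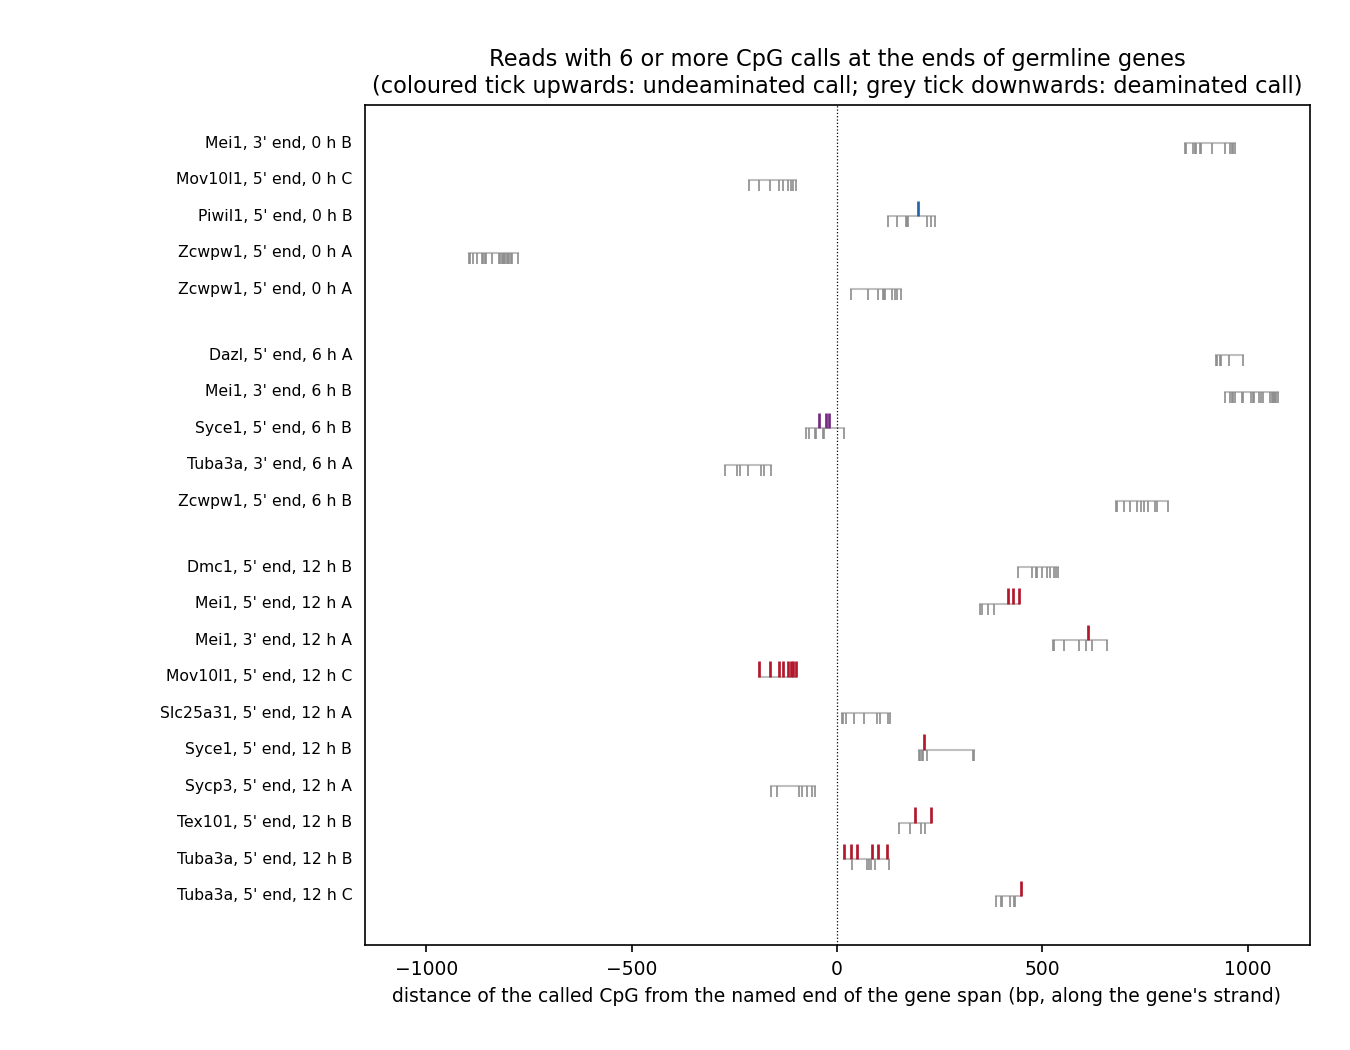
Every read with at least 6 CpG calls at an end of a germline gene, at 0, 6 and 12 h, drawn by the distance of its CpGs from that end in bp (positive is downstream along the gene's strand). Upward ticks are undeaminated and downward ticks deaminated calls. Of the 10 reads at 12 h, 7 hold an upward tick, and the Mov10l1 read holds only upward ticks.

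The times cover different genes. At 0 h the CpG-rich reads lay on Zcwpw1 (0 of 10 and 0 of 21 calls), Mov10l1 (0 of 9), Piwil1 (1 of 9) and the 3′ end of Mei1 (0 of 13), and only Mov10l1 and Mei1 had CpG-rich end reads at both 0 h and 12 h. At 6 h, Syce1 had 3 of 10 undeaminated calls at -75 to 16 bp, over the sequence printed above. The other 4 reads of that time had 0 undeaminated calls, on Zcwpw1, the histone mark reader that works with PRDM9 (0 of 11), the 3′ end of Tuba3a (0 of 7), the RNA-binding Dazl (0 of 6) and the 3′ end of Mei1 (0 of 7 within 1 kb). At Mov10l1 all 8 CpGs of the 12 h read were also on the 0 h read, and at the 3′ end of Mei1 they covered different CpGs.

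Single reads carried much of the pooled level. Leaving out each of the 10 reads in turn gave 18.9 to 30.6% at 12 h, with the lowest value without the Mov10l1 read. Without Mov10l1 the germline ends stood 13.5 points above other gene ends in place of 21.4, and without Tuba3a the level was 23.8%. Counting the first call of each read left 13.9 points, on only 10 germline calls at 12 h, too few for a firm level. Calling reads CpG-rich from 4 CpGs left 13.8 points. Of the 338 end calls, 96 also lay near the end of another gene, 76 of them on CpG-rich reads. They belonged mainly to Zcwpw1, which shares its start with Mepce, to Mei1 and Ccdc134, and to Mov10l1 and Mlc1. Without these positions the level went from 1 of 9 calls at 0 h (11.1%) to 13 of 66 at 12 h (19.7%), so that the gain fell to 8.59 points while the distance from other gene ends at 12 h was 14.2 points.

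Start sites gave a similar pooled level with less even libraries. At the 5′ ends alone, 21 of 74 CpG-rich calls were undeaminated at 12 h (28.4%) against 4.24% at other 5′ ends. Within 1 kb of the RefSeq start sites, 22 of 94 were (23.4%) against 4.33%, and 7 of 11 reads held an undeaminated call against 22.2% of other reads. Library A had 0 of 22 calls there, library B 13 of 57 (22.8%) and library C 9 of 15 (60%). On reads with fewer CpGs, library A had 9 of 31 there (29.0%). An internal start of Dmrtb1, a DM-domain transcription factor of spermatogonia, added a read with 3 of 10 (-295 to -184 bp, library B). Start sites also added a read of Mei1 with 0 of 6 (-545 to -483 bp, library A). A further added read, of Zcwpw1, had 1 of 11 (563 to 688 bp, library B). The CpG-rich end reads of Mei1 in library A lay more than 1 kb from its RefSeq start and were not counted here. Upstream of the 5′ end, from -500 to 0 bp, 8 of 15 CpG-rich calls were undeaminated at 12 h, the 8 of the Mov10l1 read, against 3.06% in other genes. From 0 to 500 bp inside the gene it was 13 of 54 (24.1%) on 7 reads against 3.91%.

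The promoters of the germline genes held more CpGs and more often an E-box than those of other genes. Windows of 300 bases were at hand for 31 of the 36 genes (not for Tex11, Spo11, Tdrd6, Rnf17 and Piwil2). Where a gene had several windows, CpGs and motifs were counted in the first one listed. The median CpG count was 18 against 13 in 17460 other genes. The E-box CACGTG, the letters bound by MGA and MAX, stood in 14 of 31 germline promoters (45.2%) and in 7.84% of the others. The letters TCCCGC, the core bound by E2F6, searched on both strands as was the E-box, stood in 13 of 31 (41.9%) and in 25.7% of the others, and both stood in 22.6 and 2.71%. Among promoters with at least 15 CpGs the E-box was found in 13 of 23 germline genes (56.5%) and 11.5% of others, and TCCCGC in 11 of 23 (47.8%) and 45.3%. Matches of the motifs can share at most 1 letter.

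Calls were counted inside all listed windows, 39 for the germline genes. There, undeaminated calls numbered 1 of 27 at 0 h, then 3 of 14 at 6 h, then 11 of 34 at 12 h (32.4%), against 5.00% in other promoters at 12 h. In windows with at least 15 CpGs the 12 h levels were 8 of 29 (27.6%) and 2.95%. The 11 undeaminated calls lay on Mov10l1 (6 of 6, its read of library C), Tuba3a (3 of 4) and the internal start of Dmrtb1 (2 of 6). The 8 in windows with at least 15 CpGs were those of Mov10l1 and Dmrtb1. Without library C the levels were 5 of 26 (19.2%) in all windows and 2 of 21 (9.52%) in those with at least 15 CpGs. Without library A they were 11 of 22 (50.0%) and 8 of 18 (44.4%). The E-box of Mov10l1 begins at -246 bp from the start site, near the 5′ end of the printed sequence, and its CpG was deaminated at 0 h and undeaminated at 12 h, both in library C. In Sycp3, with both motifs, the called CpGs of an E-box and of a TCCCGC match were deaminated at 12 h. Calls inside motifs numbered 4 at 12 h, with 1 undeaminated, too few for a level.

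Another list of 48 germline and meiosis genes, of which 47 were in the gene table, was lower in each 12 h library. At their CpG-rich ends 14 of 275 calls were undeaminated at 12 h (5.09%, 3.06 to 8.36%), close to the 5.46% of all other ends, and 6 of 25 reads held an undeaminated call (24.0%). Its libraries spread widely, with 2 of 110 in A (1.82%), 4 of 114 in B (3.51%) and 8 of 51 in C (15.7%), which lay above the 7.18% of other ends in library C and above the 12.9% of the 36 genes in library A. Without library C the list held 6 of 224 (2.68%). The distance of the 36 genes from this list at 12 h was 21.7 points. Their methylation was likewise not measured.

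By role, genes of the piRNA pathway and of Tudor proteins, which silence transposons in germ cells, had 14 of 48 undeaminated end calls at 12 h (29.2%). Those of the synaptonemal complex, the chromosome axis and meiotic cohesin had 6 of 43 (14%), recombination genes 6 of 38 (15.8%) and other germ cell genes 11 of 48 (22.9%). The intervals of the highest (18.2 to 43.2%) and the lowest (6.56 to 27.3%) overlapped, so the roles could not be told apart at this depth. Without Mov10l1 the piRNA and Tudor genes had 5 of 37 (13.5%), without Tuba3a the other germ cell genes had 4 of 29 (13.8%), and without library B the latter had 1 of 22 (4.55%). All 6 undeaminated calls of the recombination genes were in library A.

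Of the 36 genes, 22 had calls at their ends at 12 h and 11 had at least 1 undeaminated call there. The 10 with the most end calls at 12 h, with a tie at the last place, were Tuba3a (7 of 19 undeaminated), Mael (0 of 17), Dmc1 (1 of 17), Mei1 (5 of 17), Syce1 (2 of 12), Mov10l1 (9 of 11), Tdrd1 (5 of 10), Slc25a31 (0 of 9), Dmrtb1 (2 of 9), Tex101 (2 of 7) and Sycp3 (0 of 7). Mael, a piRNA factor, stood at 0 in all 12 h libraries, with 4, 5 and 8 calls in A, B and C. Tdrd1, a Tudor protein that binds PIWI proteins, had 0 of 1 in library A and 5 of 9 in library B. Those 9 calls were on 2 overlapping reads between 473 and 536 bp inside the gene, with 2 of 5 and 3 of 4 undeaminated. Of the other genes with end calls, Stag3 had 2 of 6, Hormad1 and Rec8 had 1 of 6 each, and Sycp2 had 0 of 6. Asz1, Brdt, Spo11, Piwil1, Rnf17, Piwil4 and Zcwpw1 had 1 to 4 calls each, with 0 undeaminated.

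In the bodies the germline genes stood close to other genes at each time. Their level was 3 of 266 calls at 0 h (1.13%), then 13 of 246 at 6 h (5.28%), then 191 of 803 at 12 h (23.8%, 21.0 to 26.9%), against 1.10, 6.94 and 25.9% in other gene bodies. The 12 h libraries had 86 of 355 (24.2%), 70 of 326 (21.5%) and 35 of 122 (28.7%), and other bodies 24.8, 25.6 and 29.3%. All 3 germline values lay below those of other bodies. The difference of -2.12 points was about as large as its SD over the 12 h libraries (2.07, n = 3), and was -1.39 points at equal classes of CpGs per read. It was -3.23 points without 12 h library A and -0.751 points without library B. CpG-rich reads in bodies had 26 of 116 (22.4%) against 21.3%, with an interval of 15.8 to 30.8% that includes the level of other bodies. By role, bodies stood at 25.7% for piRNA and Tudor genes, 21.3% for synaptonemal, axis and cohesin genes, 20.2% for recombination genes and 24.0% for the others.

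Single genes were compared with limma over ends and body together, in 7737 protein-coding genes with at least 20 calls at 12 h and 5 at 0 h. Of the 17 germline genes tested, 8 rose from 0 h to 12 h at an adjusted p under 0.05, where 65.9% of all genes did. All 17 estimates were above 0, as were 7561 of those of the 7737 genes. Their median was 18.3 points, against 21.9 points over all genes tested. Whether the libraries of 12 h and 0 h overlapped is given below for single genes and was not counted over all genes. Since all genes of a library share its rise, these gains are not independent, and the p-values measure the spread between these libraries only. A quasi-binomial model called 0 genes for a gain after adjustment, with 2672 of all genes and 3 of the 17 at an unadjusted p under 0.05.

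The 8 genes past the threshold were Piwil4, Dmrtb1, Tdrd1, Piwil2, Mov10l1, Mei1, Rnf17 and Tex14. With each of the 8 libraries left out in turn, Piwil4, Piwil2, Mei1 and Tex14 passed every time, Dmrtb1 in 7 of 8 fits, Tdrd1 in 5, Rnf17 in 4 and Mov10l1 in 1. Piwil4 (MIWI2), which directs DNA methylation to transposons in fetal germ cells, had 0 of 11, 0 of 1 and 0 of 1 undeaminated calls in the 0 h libraries, 0 of 3 and 0 of 10 at 6 h, and 13 of 21, 2 of 9 and 3 of 7 at 12 h. All of its 12 h libraries lay above 0 while its 0 h and 6 h libraries were at 0, and its gain was 49.0 points (SE 7.35, limma adjusted p = 0.00224). Dmrtb1 had 0 of 9 calls at 0 h and 8 of 18, 5 of 14 and 0 of 2 at 12 h, and library C, with 2 calls, overlapped 0 h. It gained 38.5 points by limma (SE 6.00, adjusted p = 0.00657).

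Tdrd1 had 0 of 11, 1 of 8 and 0 of 4 at 0 h and 3 of 20, 13 of 27 and 6 of 11 at 12 h, where every library lay above those of 0 h. Its gain was 33.7 points (limma adjusted p = 0.0227). Piwil2 (MILI), the PIWI protein that feeds piRNAs to Piwil4, had 0 of 8 at 0 h and 1 of 11 at 6 h. At 12 h its libraries held 7 of 20, 5 of 18 and 2 of 6, all above those of 0 h. Its gain was 31.8 points (limma adjusted p = 0.000671). Mov10l1 had 0 of 35 at 0 h and 8 of 33, 0 of 8 and 8 of 9 at 12 h, so that library B stayed at 0 and library C held the fully undeaminated read. Its gain was 30.9 points (SE 11.3, limma adjusted p = 0.0483). It was not among the genes called in any fit that left out 1 library other than 12 h library C, nor with the replicate block or without weights.

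Mei1 had 0 of 11 and 0 of 21 calls in 0 h libraries A and B, 0 calls in 0 h library C, and 2 of 27 at 6 h. Its 12 h libraries held 10 of 39, 5 of 32 and 6 of 17, with no overlap with 0 h libraries A and B, and the gain was 23.7 points. Rnf17, a Tudor protein, gained 22.7 points from 0 of 6 at 0 h to 6 of 27 at 12 h. Tex14, of the bridges that join germ cells, had the smallest gain of the 8, 19.0 points (SE 1.85), with 6 of 36, 8 of 41 and 3 of 12 calls at 12 h. The 9 tested genes that missed the threshold had gains of 6.87 points (Piwil1, the PIWI protein of later spermatogenesis) to 18.3 points (Tuba3a). They include the well covered Tdrd9, a helicase with a Tudor domain (17 of 89 calls at 12 h), Tdrd6, of the chromatoid body (8 of 44), and Hormad2, of the chromosome axis (6 of 36).

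**Figure D4:**
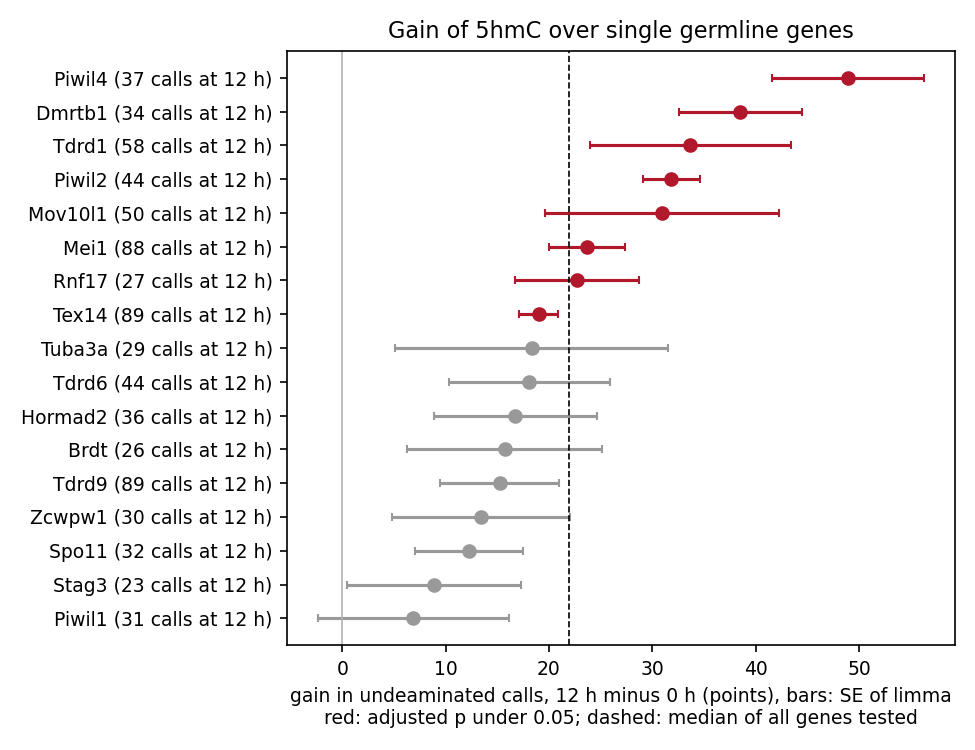
Gain from 0 h to 12 h of the 17 germline genes tested, in percentage points of undeaminated calls with the standard error from limma, red where the adjusted p was under 0.05. The dashed line is the median of all 7737 genes tested, 21.9 points, with 7 germline genes above it.

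In the tests of whether a gene gained more or less 5hmC than its library, no germline gene passed. In the fit of each gene's level minus the library level, 0 of 17 germline genes passed, against 0.0258% of all genes called higher and 0.116% called lower. An unadjusted p under 0.05 was found for 1359 of all 7737 genes tested and for 2 of the 17. These were Piwil4, 26.6 points higher (limma adjusted p = 0.155), and Piwil2, 9.61 points higher (limma adjusted p = 0.257). Without 12 h library B, Piwil4 passed as higher, where 3.12% of all genes did, and without 12 h library A, Brdt and Zcwpw1 passed as lower, where 4.34% of all genes did. The median deviation of the 17 was -4.17 points, against -0.406 points over all genes tested. The quasi-binomial model called 0 genes here as well, with 56 of all genes and 0 of the 17 at an unadjusted p under 0.05.

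At 6 h no germline gene was called by limma for a gain over 0 h (0 of 17, with 0.627% of all genes called). An unadjusted p under 0.05 was found for 1161 of all 7501 genes tested and for 2 of the 17. The 2 were Piwil2 (9.09 points, limma adjusted p = 0.242) and Brdt, a testis bromodomain protein with 3 of 7 calls undeaminated at 6 h (limma adjusted p = 0.167). Over the whole span, 35 of the 36 genes had calls at 12 h and 30 had at least 1 undeaminated call. The 5 with calls but none undeaminated were Asz1, Slc25a31, Smc1b, Sycp3 and Taf7l, with 1 to 11 calls. Dazl had calls only at 6 h, 0 of 6. In the 19 germline genes with at least 20 calls at 12 h, the level ran from 8.70% in Stag3, a meiotic cohesin subunit, to 48.6% in Piwil4. The median gene of the 19 had 17 of 89 calls undeaminated, and the median level over 9942 protein-coding genes was 22.0%.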

How the data were processed

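The authors deposited 1 list of CpG calls per library, with the read name, position and call letter. Per the file headers it is output of the Bismark methylation extractor 0.22.3. Trim Galore and the build GRCm38 are named in the submitters' processing notes beside Bismark. Settings of trimming and alignment, and whether duplicates were removed, are not given in the sources. Libraries started from 10 ng of fragmented DNA, per the labels' protocols, and were read with 150 bp chemistry.

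From these letters, levels were computed as the percentage of undeaminated calls, pooled over the libraries of a time, with 95% Wilson intervals and a limit of 3 counts for a share of 0. Gene spans came from RefSeq for GRCm38.p6 without strand. Strand came from the RefSeq promoter table, which held 31 of the 36 genes. As a check, 99.9% of calls in promoter windows fell on a CpG of the sequence.

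Genes were fitted with limma 3.58.1 (R 4.3.3) on the level per library, weighted by calls, in 1 factor of 3 groups over all 8 libraries, with moderated variances, Benjamini-Hochberg adjustment and a threshold of 0.05. A second fit used the level minus the library level. The code was tested on simulated data. Pooling used Python 3.11.15, numpy 2.4.6, pandas 2.3.3 and scipy 1.17.1, and plots matplotlib 3.10.9.

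The genes and gene lists were chosen with earlier results of these data known. Genes were named by a rule: the 10 with the most calls at their ends at 12 h, the 10 with the most calls in the span, the 5 with the most CpG-rich end calls, and any past the threshold for deviation. Others named, such as the genes past the threshold for a gain and those of single reads, were named after their values were seen. Alternatives were other end sizes, CpG minimums, filters, weights and models, 1 call per read, identical reads counted once, and leaving out libraries or genes. Chosen after seeing the data were leaving out Mov10l1 (and, for levels of single classes, roles and promoter windows, Tuba3a or a 12 h library), positions near another gene, or fully undeaminated reads, and using 5′ ends or RefSeq start sites.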

Additional observations from a re-analysis of the deposited data

How the results depend on the processing

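The pooled level of CpG-rich germline gene ends at 12 h stayed above that of other gene ends, and above its own 0 h level, under every alternative run. This did not hold for each part. The class of 8-10 CpGs held 2 of 35 (5.71%) without Mov10l1 or without 12 h library C, below other ends. At RefSeq start sites, 12 h library A had 0 of 22 CpG-rich calls undeaminated, against 3.65% at other start sites. With 1 library left out at a time, the gain of these ends ranged from 17.8 to 33.7 points and their distance from other gene ends from 14.3 to 29.4 points. For ends of all classes the gain ranged from 18.2 to 23.1 points and the distance from the level expected for their classes from 3.43 to 9.62 points. For bodies the gain ranged from 21.7 to 24.2 points and the distance from other bodies from -3.23 to -0.751 points. The gain of ends of all classes was 12.8 points with 1 call per read and also 12.8 points without positions near another gene's end. Their distance from the expected level was the least stable value: 11.7 points with ends of 500 bp, 13.1 with 5′ ends only, 12.9 at RefSeq start sites, 3.39 without Tuba3a, 2.82 without fully undeaminated reads, 2.03 without Mov10l1, 1.26 without positions near another gene's end, and -6.61 with 1 call per read, where the cause was not tested.

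Of 7737 genes, limma called 5101 for a gain and 11 for a deviation. The gains were 2840 with 1 call per read (3377 genes tested), 349 with at least 10 calls in every library (357 tested, no germline gene among them, so no value for these), 3154 without weights and 0 with the quasi-binomial model. Deviating genes were 0 without weights and 0 with that model. With 1 library left out, gains ranged from 3915 to 5015 genes and deviating genes from 6 to 626, with the high counts, 626, 514 and 234, without 12 h library A, B or C. The 8 germline genes with a gain became 5 with 1 call per read (6 tested), 5 without weights and 0 with the quasi-binomial model, and 5 to 8 with 1 library left out, 5 of them without 0 h library A or 12 h library B. Germline genes that deviated numbered 0 to 2 with 1 library left out.

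Same-letter libraries of different times correlated at -0.162 to 0.0037 in their deviations over 357 genes, and libraries of different letters at -0.0512 to 0.156. The deviations were taken from means of 2 or 3 libraries, so these values cannot decide whether the letters pair the libraries. With the letter as a replicate block, 3581 genes had a gain and 6 deviated, and 5 germline genes had a gain. Depth limits all values at gene ends: 10 CpG-rich reads at 12 h and 5 at 0 h.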
